A study of Mus musculus with 18 samples.

Results

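The nuclear genes that encode subunits of respiratory complexes III, IV and V were followed in the hearts of male C57BL/6 mice. Members were chosen by name: genes of the second count table whose symbol starts with Uqcr, Cox4i, Cox5, Cox6, Cox7, Cox8 or Atp5, or is Cyc1, that carry no pseudogene suffix and that were also found in the first count table. The rule gave 45 genes of 35565 joined between the tables, with 9 of complex III, 19 of complex IV and 17 of complex V. Enough counts for a test were present for 42 of the 45, among 14628 genes tested in all. The 3 others were Cox7b2, with 0 to 3 counts per library, Cox6c2, with 0 to 22, and Cox8c, with 0 in each.

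All 18 wild-type mice received daily isoproterenol (ISO), a beta-adrenergic agonist that stresses the heart, by injection of 2.5 mg/kg/day below the skin over 21 days. The ISO group had water by gavage, and the other groups had polystyrene (PS) particles of 100 nm or 1 µm by gavage at 50 mg/kg/day over the same 21 days. Each group had 6 libraries, 1 per mouse as the labels assign them. No mouse was without ISO, so nothing here can be set against an unstressed heart. Batch 1, one sequencing provider, held 3 ISO, 5 of 100 nm and 4 of 1 µm PS, and batch 2, another provider, held 3, 1 and 2.

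Complex III passes electrons from ubiquinol to cytochrome c, complex IV passes them on to oxygen, and both pump protons across the inner mitochondrial membrane. Complex V, the ATP synthase, uses the returning protons to make ATP. The catalytic core of complex IV, one subunit of complex III and part of the proton channel of complex V are encoded in mitochondrial DNA, and the genes described here supply the remaining subunits from the nucleus. The heart depends on this system for nearly all its ATP, and several complex IV subunits come as a heart and muscle isoform and a widely expressed one.

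The members that fell with PS were mostly small accessory subunits, but Atp5c1, the axle subunit of complex V, also fell with 100 nm PS. The large subunits Uqcrc1, Uqcrc2, Atp5a1 and Atp5b did not pass in the fit reported, while Atp5a1 passed in some other fits given below. With 100 nm PS, 13 of the 42 tested members fell and 0 rose (adjusted p under 0.05, edgeR's quasi-likelihood test with batch as a term), against 5.7% of all tested genes called lower and 3.88% called higher. With 1 µm PS, 11 fell and 0 rose, against 4.51% of all genes called lower and 2.89% called higher, and both comparisons share the ISO libraries. The median log2 fold change of the members was -0.82 with 100 nm and -0.82 with 1 µm PS, where that of all genes was -0.02 and 0.00, and all 42 estimates lay below 0 in each comparison. At an unadjusted p under 0.05 there were 28 (66.7%) and 26 (61.9%) of the 42 members, against 28.6% and 27.0% of all genes. With both PS groups pooled against ISO, 22 of 42 fell and 0 rose, against 10.9% of all genes called lower and 6.82% called higher. In bulk tissue, fewer cells of a type and less RNA per cell cannot be told apart.

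By complex, 1 of 9 tested subunits of complex III, 5 of 16 of complex IV and 7 of 17 of complex V fell with 100 nm PS. With 1 µm PS the counts were 1, 5 and 5. The members that fell in both comparisons were Uqcrh, Cox6c, Cox7a2, Cox7a2l, Cox7b, Cox7c, Atp5e, Atp5j2, Atp5l, Atp5md and Atp5mpl, and Atp5c1 and Atp5k fell with 100 nm PS.

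**Figure D1:**
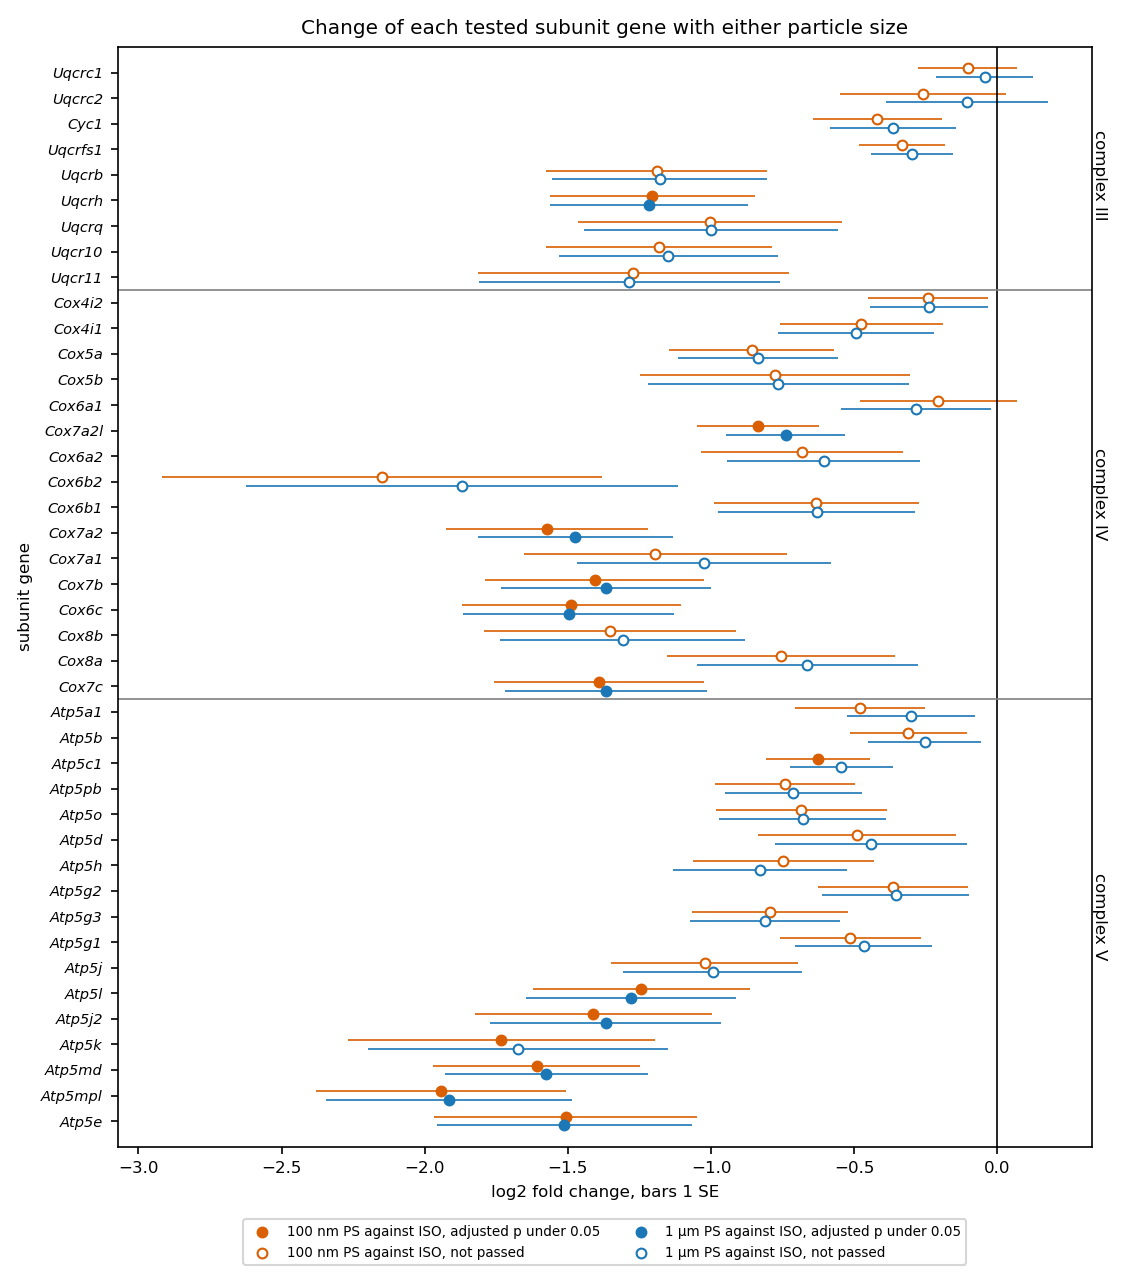
Log2 fold change of each of the 42 tested subunit genes (vertical axis, by complex, longest coding sequence first) with 100 nm (orange) or 1 µm PS (blue) against ISO, bars 1 standard error (SE), filled points passing the adjusted p threshold of 0.05. The filled points number 13 and 11, all below 0, and the members under 500 bases have medians of -1.19 and -1.16, with Cox6b2 farthest to the left.

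Those calls rested heavily on single ISO libraries, which differed more among themselves than the PS libraries did. In batch 1, ISO replicate 2 had the highest level of the 12 libraries for 41 of 42 members and ISO replicate 1 the lowest for 29. Levels are in CPM, counts scaled to the library size. The members' median log2 CPM was 11.04 in ISO replicate 2, 8.30 in ISO replicate 1 and 8.90 in ISO replicate 3, and it ran from 8.88 to 9.22 in the 9 PS libraries of that batch. In batch 2 it was 10.29, 9.91 and 9.72 in the 3 ISO libraries and 8.78, 8.61 and 9.09 in the 3 PS libraries. The members took 7.40% of all counts in ISO replicate 2 and 2.01% in ISO replicate 1. These libraries also stood apart in other measures: 13157 genes had at least 1 count in ISO replicate 2, against 16567 to 18760 in the other libraries, and mitochondrially encoded genes took 44.7% of joined counts in ISO replicate 1, against 13.9% to 32.1% in the others. In batch 2 that share was 22.3% to 24.0% in ISO and 13.9% to 17.9% in PS. The part of these measures in the members' differences was not tested.

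Without ISO replicate 2, 3 members fell with 100 nm PS (Atp5md, Cox7a2 and Cox7a2l) and 4 with 1 µm PS (those and Atp5mpl), and the medians were -0.35 and -0.37. Of the 42 estimates, 36 and 37 then lay below 0, so not all kept their sign. Of all genes 9.06% and 8.56% were then called lower, so the members' counts of 3 and 4 of 42 were close to the share over all genes. In the pooled comparison 6 of 42 fell without that library, against 12.5% of all genes: Atp5c1, Atp5md, Atp5mpl, Cox6c, Cox7a2 and Cox7a2l. Without ISO replicate 1 the counts were 31 and 29, with medians of -1.05 and -1.03, against 8.81% and 7.93% of all genes. Without ISO replicate 3 they were 22 and 21, against 8.79% and 8.62%. Leaving out replicates 1 and 2 of ISO together gave 2 and 8 calls, with medians of -0.63 and -0.61, against 2.66% and 4.37% of all genes, so the count with 100 nm was near the share over all genes. With 100 nm PS no member passed without 100 nm replicate 6, the single library of that group in batch 2, when 0.789% of all genes were called lower.

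The batches differed in which libraries overlapped. In batch 2 all 3 PS libraries lay below all 3 ISO libraries for 31 of 42 members (73.8%), against 16.7% of all tested genes. The exceptions were Cyc1, Uqcrc1, Uqcrc2, Cox4i1, Cox4i2, Cox6b2, Atp5a1, Atp5b, Atp5d, Atp5g2 and Atp5o. A two-sided exact test of 3 against 3 cannot go below a p of 0.1, so no single gene was tested within this batch alone by permutation. In batch 1 all 9 PS libraries lay below all 3 ISO libraries for 2 of 42 members (4.76%), Atp5c1 and Atp5a1, against 5.69% of all genes. For 31 members (73.8%) the 9 PS libraries of batch 1 lay inside the range of the 3 ISO libraries, against 35.5% of all genes. In mean log2 CPM, the batch 1 PS libraries lay below the 3 ISO libraries for 32 members and above them for 10. Against ISO replicate 3 alone, 14 members were lower and 28 higher in mean log2 CPM of the batch 1 PS libraries, with a median difference of 0.08. Atp5c1 was the one tested member whose PS libraries lay below the ISO libraries in both batches.

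A model with a separate PS effect in each batch called no member different between the batches (0 of 42), against 2.5% of all tested genes. At an unadjusted p under 0.05 there was 1 member (2.38%), against 19.7% of all genes. It was Atp5a1, with a difference in log2 fold change of 1.02 ± 0.32 (SE) and an adjusted p of 0.092 (edgeR). Atp5a1, the catalytic-ring alpha subunit of complex V, was named here after its values were seen. In batch 1 it stood at 4853, 7278 and 4909 CPM in ISO replicates 1, 2 and 3 and between 2572 and 4093 in the PS libraries, with no overlap. In batch 2 it stood at 4723, 4326 and 4879 CPM in ISO and at 4920, 7085 and 4513 in PS, where the groups overlapped.

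**Figure D2:**
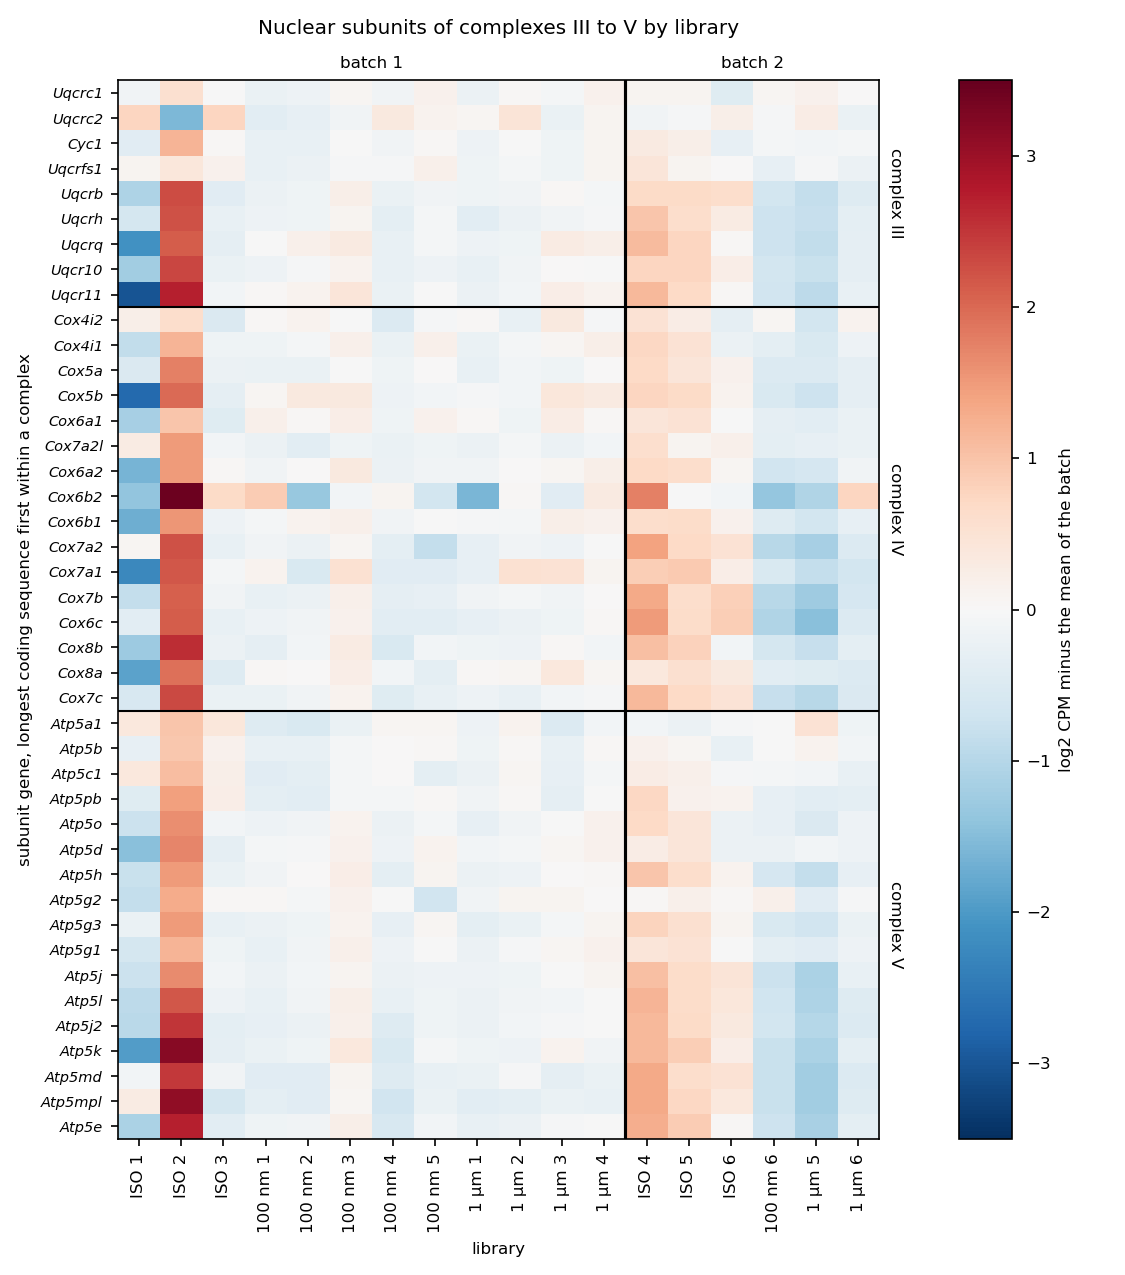
Each tested subunit gene (rows, by complex, longest coding sequence first) in each library (columns, batch 1 left of the black line), coloured by its log2 CPM minus the mean of its batch. ISO replicate 2 is red in 41 of 42 rows, ISO replicate 1 is the lowest of batch 1 in 29, and in batch 2 the 3 ISO columns are mostly red and the 3 PS columns mostly blue.

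Size of the gene went with size of the difference. The coding length, the bases from start to stop codon of the principal transcript, was used as the measure, and its thresholds were set after the values were seen. Over the 42 members, log2 fold change and coding length had a Spearman correlation of 0.81 with 100 nm and 0.81 with 1 µm PS. Over 13425 protein-coding genes the values were 0.25 and 0.30. The correlations are descriptions across genes, which share libraries and are not independent. The 30 members with a coding length under 500 bases had a median log2 fold change of -1.19 with 100 nm and -1.16 with 1 µm PS, the 8 from 500 to under 1000 bases -0.48 and -0.47, and the 4 of 1000 bases or more -0.29 and -0.18. All protein-coding genes tested had medians of -0.43 and -0.43 under 500 bases, and 0.07 and 0.11 at 1000 bases or more, so the members lay below the other genes in each of these classes. Of the 1175 tested coding genes under 500 bases, 15.1% were called lower with 100 nm PS, and of the 30 members of that length 40.0%.

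The same length pattern was present between libraries of one group. The deviation of ISO replicate 2 from its batch mean had a median of 2.15 (log2) for the members under 500 bases and of 0.76 for those of 1000 bases or more. In ISO replicate 1 these medians were -0.93 and 0.12. In batch 2 the PS libraries lay below the ISO libraries by a median of 1.24 on the log2 scale for members under 500 bases, while the 4 of 1000 bases or more had a median difference of 0.09, and the correlation with coding length was 0.83. In batch 1 the medians were -0.43 and -0.28 and the correlation was 0.17, and against ISO replicate 3 alone it was -0.40.

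Short coding genes as a class moved alike: those under 500 bases took 23.8% of joined counts in ISO replicate 2, 5.82% in ISO replicate 1, 9.66% in ISO replicate 3, 12.6% to 16.8% in ISO of batch 2 and 8.12% to 11.9% in the PS libraries. A further fit corrected every library for GC content and for the length of each gene's longest transcript, which is not its coding length. Atp5l, for example, has 309 coding bases and a longest transcript of 6310. A correction by coding length was not run. In this fit the members' medians were -0.67 with 100 nm and -0.62 with 1 µm PS. Of 42 estimates, 42 and 41 lay below 0. The medians of all genes moved to -0.17 and -0.13. Calls became rare over the whole genome in that fit: 2 members and 0.116% of all genes were called lower with 100 nm PS, and 0 members and 0 genes with 1 µm PS. In the pooled comparison of the same fit 19 of 42 members fell, against 9.69% of all genes. Atp5a1 and Cyc1 were among the 19.

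**Figure D3:**
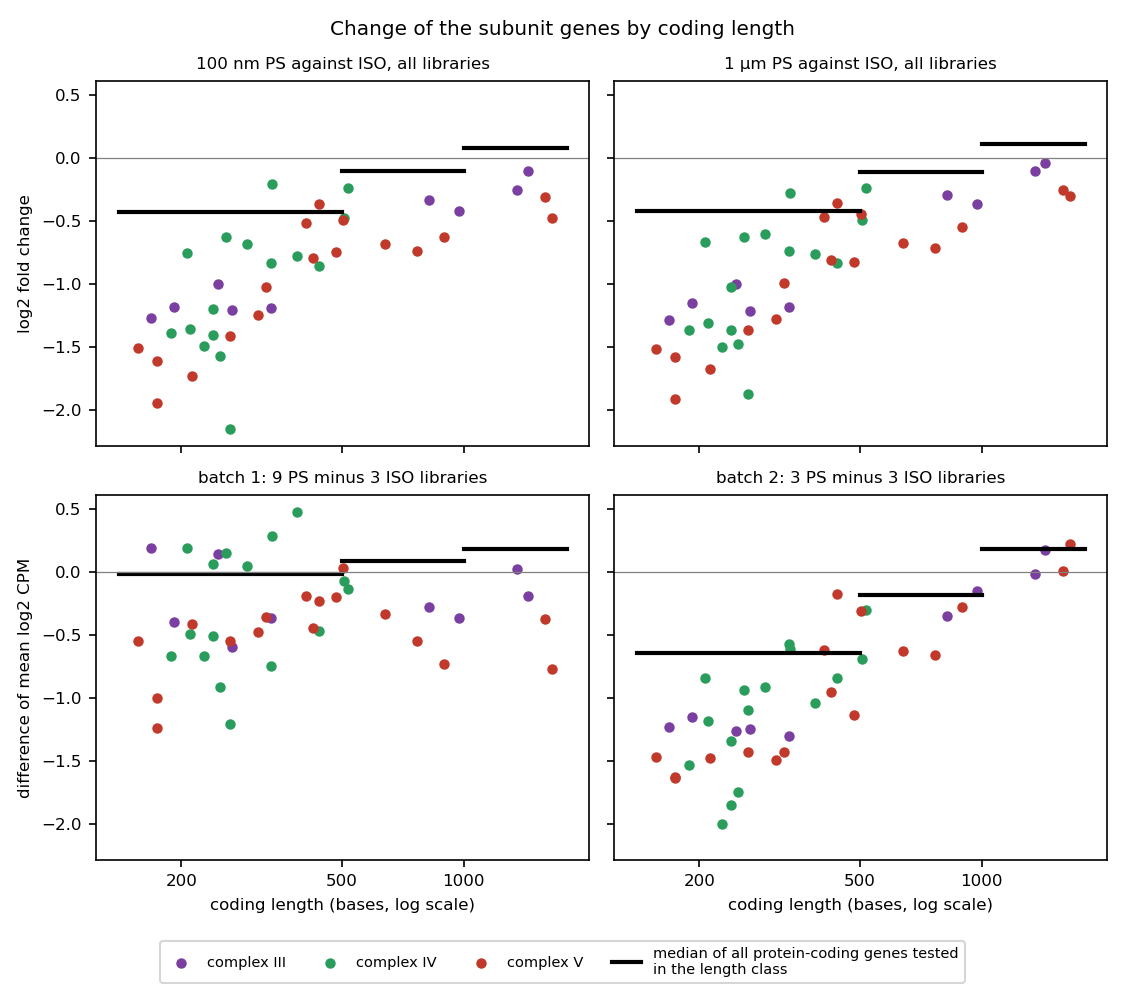
Difference of each tested subunit gene (vertical axis, log2) against its coding length (horizontal axis, log scale), from the fit over all libraries (top) and as differences of mean log2 CPM within each batch (bottom), with black bars for the median of all protein-coding genes tested in a length class. The members under 500 bases centre on -1.19 and -1.16 in the top panels and lie lowest in batch 2, and in batch 1 they spread on both sides of 0.

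Promoters are shown for 4 members that fell with 100 nm PS and hold a motif of a known regulator of respiratory genes, and for Uqcrc1, whose log2 fold changes were -0.10 and -0.04 and which holds none. They were picked as examples for these traits, and motifs were also found in members that were not called. The RefSeq table (GRCm38.p6) held a start for 33 of the 45 members, and the 250 bases before each start were searched on both strands. Capitals mark CCGGAAG or its reverse complement, the core that binds GABP and other ETS factors, in Uqcrh, Atp5e and Atp5l, a CACGTG E-box in Atp5l, and the NRF1 motif (GCGCA, any base, GCGC) in Atp5k.
Uqcrh, chr4:116075071-116075320, minus strand: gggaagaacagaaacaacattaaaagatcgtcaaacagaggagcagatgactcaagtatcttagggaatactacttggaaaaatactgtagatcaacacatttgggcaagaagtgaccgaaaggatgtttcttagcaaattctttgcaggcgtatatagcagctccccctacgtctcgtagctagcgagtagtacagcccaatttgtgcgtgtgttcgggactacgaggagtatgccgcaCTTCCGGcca
Atp5e, chr2:174464102-174464351, minus strand: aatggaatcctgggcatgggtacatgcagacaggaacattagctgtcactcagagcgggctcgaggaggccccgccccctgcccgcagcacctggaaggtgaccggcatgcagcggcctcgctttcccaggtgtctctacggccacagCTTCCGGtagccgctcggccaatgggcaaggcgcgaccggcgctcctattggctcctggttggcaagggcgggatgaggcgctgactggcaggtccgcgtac
Atp5l, chr9:44920743-44920992, minus strand: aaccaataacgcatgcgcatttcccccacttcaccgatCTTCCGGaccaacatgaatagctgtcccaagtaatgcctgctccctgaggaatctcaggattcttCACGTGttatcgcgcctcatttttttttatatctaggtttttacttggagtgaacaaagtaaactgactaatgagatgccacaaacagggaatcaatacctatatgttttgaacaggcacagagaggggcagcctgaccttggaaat
Atp5k, chr5:108434400-108434649, minus strand: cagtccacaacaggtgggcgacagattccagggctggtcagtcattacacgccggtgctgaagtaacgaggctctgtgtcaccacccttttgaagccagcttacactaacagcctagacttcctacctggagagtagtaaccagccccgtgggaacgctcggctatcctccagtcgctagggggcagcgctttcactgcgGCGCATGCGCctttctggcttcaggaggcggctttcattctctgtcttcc
Uqcrc1, chr9:108936398-108936647, plus strand: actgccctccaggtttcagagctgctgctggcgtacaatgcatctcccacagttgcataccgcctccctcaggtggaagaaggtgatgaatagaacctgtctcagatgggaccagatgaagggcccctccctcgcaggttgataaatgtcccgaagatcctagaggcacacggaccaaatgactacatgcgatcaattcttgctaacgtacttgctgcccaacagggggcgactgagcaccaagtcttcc

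The ETS core begins 10 bases before the start in Uqcrh, 102 in Atp5e and 212 in Atp5l, and the NRF1 motif begins 50 bases before that of Atp5k. The ETS core was found in 7 of 33 members' promoters (21.2%) and in 7.05% of 27025 promoters of the table. Among the members called in either comparison it was in 3 of 11 (27.3%), and among the tested members not called in 4 of 21 (19.0%). The NRF1 motif was in 4 of 33 (12.1%) against 3.86% of all, the CACGTG E-box in 4 (12.1%) against 6.05%, the ERR motif TNAAGGTCA in 1 (3.03%) against 1.14%, and the YY1 motif AAGATGGC in 0 against 1.59%. The NRF1 motif and the E-box were each in 1 of 11 called members (9.09%) and 3 of 21 tested members not called (14.3%). Cox6a1, which was not called (log2 fold changes -0.21 and -0.28), holds 2 NRF1 motifs and 1 ETS core. A match is a description of letters and not of binding.

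In complex III, Uqcrh encodes the hinge protein that helps cytochrome c dock on the complex, and its promoter is the first one printed above. In batch 1 Uqcrh stood at 351, 2528 and 457 CPM in ISO replicates 1, 2 and 3, and the 9 PS libraries ran from 423 to 580 around a median of 492. In batch 2 it stood at 1408, 1111 and 890 CPM in ISO replicates 4, 5 and 6 and at 435, 416 and 576 CPM in 100 nm replicate 6 and 1 µm replicates 5 and 6. The PS libraries were all below ISO in batch 2 and inside the ISO range in batch 1. Its log2 fold change was -1.21 ± 0.36 (SE) with 100 nm (adjusted p = 0.042) and -1.22 ± 0.35 with 1 µm PS (adjusted p = 0.041), and -0.47 and -0.57 without ISO replicate 2, when neither passed.

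The other small subunits of complex III, Uqcrb, Uqcrq, Uqcr10 and Uqcr11, had log2 fold changes from -1.27 to -1.0 with 100 nm and from -1.29 to -1.0 with 1 µm PS, and none passed in either comparison. Uqcrb and Uqcr10 passed in the pooled comparison, with log2 fold changes of -1.18 ± 0.32 and -1.16 ± 0.32 (SE), and neither did without ISO replicate 2. The large subunits stood apart from these. The core proteins Uqcrc1 and Uqcrc2, which form the matrix-facing base of the complex, had log2 fold changes of -0.10 and -0.26 with 100 nm and of -0.04 and -0.11 with 1 µm PS. Uqcrfs1, the Rieske iron-sulfur protein, and Cyc1, cytochrome c1, carry the electrons and had values of -0.33 and -0.42 with 100 nm and of -0.30 and -0.36 with 1 µm PS. None of these 4 passed. Uqcrc1 was at 1194, 1928 and 1296 CPM in ISO of batch 1 against 1103 to 1452 in PS, and at 2279, 2270 and 1595 in ISO of batch 2 against 2267, 2397 and 2160 in PS, so the groups overlapped in both batches. Uqcrc2 was the one member that ISO replicate 2 did not lead in batch 1: it had 183 CPM there against 925 and 921 in ISO replicates 1 and 3.

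The 5 members of complex IV that fell in both comparisons were small single-span or peripheral subunits. Cox6c, which lies beside the catalytic core, stood at 681, 3816 and 728 CPM in ISO of batch 1 and between 674 and 968 in the PS libraries. In batch 2 it stood at 1551, 874 and 1008 CPM in ISO and at 270, 201 and 397 in PS. All PS libraries of batch 2 were below ISO, and those of batch 1 overlapped ISO replicates 1 and 3. Cox6c had log2 fold changes of -1.49 ± 0.38 (SE, adjusted p = 0.025) with 100 nm and -1.50 ± 0.37 (adjusted p = 0.025) with 1 µm PS, and of -0.96 and -1.02 without ISO replicate 2, when neither passed.

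Cox7a2 and Cox7a2l are related genes. Cox7a2 is the widely expressed isoform of subunit VIIa, and Cox7a2l encodes a protein that takes part in joining complexes III and IV into supercomplexes. Cox7a2 was at 383, 1700 and 302 CPM in ISO of batch 1 against 203 to 378 in PS, and at 828, 511 and 444 in ISO of batch 2 against 158, 140 and 224 in PS. Cox7a2l was at 296, 681 and 230 CPM in ISO of batch 1 against 187 to 231 in PS, and at 366, 260 and 273 in ISO of batch 2 against 193, 198 and 207 in PS. For both genes the PS libraries of batch 2 lay below ISO without overlap. In batch 1, 8 of 9 PS libraries of Cox7a2l lay below all 3 ISO libraries, the exception being 1 µm replicate 2. The log2 fold changes of Cox7a2 were -1.57 ± 0.35 (SE) and -1.47 ± 0.34 with 100 nm and 1 µm PS (adjusted p = 0.017 and 0.020), and those of Cox7a2l were -0.84 ± 0.21 and -0.74 ± 0.21 (adjusted p = 0.024 and 0.039). Both genes still passed in both comparisons without ISO replicate 2, at -1.02 and -0.98 for Cox7a2 and -0.48 and -0.42 for Cox7a2l.

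Cox7b and Cox7c, small subunits that span the membrane once, followed Cox6c. Cox7b stood at 303, 2304 and 498 CPM in ISO of batch 1 against 437 to 612 in PS, and at 1072, 664 and 772 in ISO of batch 2 against 221, 183 and 289 in PS. Cox7c stood at 327, 2369 and 408 CPM in ISO of batch 1 against 356 to 528 in PS, and at 1245, 917 and 799 in ISO of batch 2 against 323, 292 and 398 in PS. The PS libraries of both genes lay inside the ISO range in batch 1 and below it in batch 2. The log2 fold changes were -1.41 ± 0.38 (SE) and -1.37 ± 0.37 for Cox7b (adjusted p = 0.031 and 0.034) and -1.39 ± 0.37 and -1.37 ± 0.35 for Cox7c (adjusted p = 0.028 and 0.029). Without ISO replicate 2 they were -0.85 and -0.86 for Cox7b and -0.68 and -0.73 for Cox7c, and none of these passed.

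Of the remaining complex IV members outside the isoform pairs, Cox5a, Cox5b and Cox6b1 had log2 fold changes from -0.86 to -0.63 with 100 nm and from -0.84 to -0.63 with 1 µm PS, and none passed. Cox5a passed in the pooled comparison at -0.85 ± 0.24 (SE), but not without ISO replicate 2. Cox6b2, the testis form of a subunit that faces the intermembrane space, was close to absent, at a mean of 2.56 CPM per kb of transcript in batch 1 and 1.34 in batch 2, and its log2 fold changes of -2.15 ± 0.77 and -1.87 ± 0.76 (SE) did not pass. In the pooled comparison it passed at -2.01 ± 0.61 (SE), but not without ISO replicate 2. That library had 7.88 CPM of Cox6b2, and each other library at most 1.79.

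In complex V, members of 2 kinds fell: Atp5c1 and Atp5e of the rotor stalk, and Atp5j2, Atp5k, Atp5l, Atp5md and Atp5mpl of the membrane part. Atp5c1 encodes the gamma subunit, the axle that turns inside the catalytic ring, and at 894 bases it has the longest coding sequence of the members that fell. In batch 1 Atp5c1 stood at 1360, 2246 and 1228 CPM in ISO and at 800, 842, 1010, 1063 and 844 in 100 nm and 920, 1111, 866 and 1019 in 1 µm PS. In batch 2 it stood at 1770, 1664 and 1434 CPM in ISO and at 1397, 1377 and 1218 in PS. Every PS library was below every ISO library of its batch, although the PS libraries of batch 2 lay above those of batch 1. Its log2 fold change was -0.63 ± 0.18 (SE, adjusted p = 0.040) with 100 nm and -0.55 ± 0.18 (adjusted p = 0.065) with 1 µm PS. Without ISO replicate 2 it was -0.42 (adjusted p = 0.067) and -0.36 (adjusted p = 0.11).

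Atp5e encodes the epsilon subunit at the foot of that axle. It stood at 181, 2559 and 301 CPM in ISO of batch 1 against 266 to 451 in PS, and at 1196, 927 and 511 in ISO of batch 2 against 304, 226 and 391 in PS. ISO replicate 2 was far above all others in batch 1, ISO replicate 1 was the lowest there, and in batch 2 the groups did not overlap. The log2 fold changes were -1.51 ± 0.46 and -1.51 ± 0.45 (SE, adjusted p = 0.046 and 0.046), and -0.49 and -0.60 without ISO replicate 2, when neither passed.

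The membrane part of complex V anchors the stator and helps synthase molecules pair along the cristae. Atp5md and Atp5mpl, which encode the smallest of these proteins, had the smallest p of complex V. Atp5md stood at 284, 1712 and 281 CPM in ISO of batch 1 against 222 to 328 in PS, and at 764, 470 and 431 in ISO of batch 2 against 179, 132 and 220 in PS. Atp5mpl stood at 302, 2120 and 159 CPM in ISO of batch 1 against 153 to 256 in PS, and at 633, 419 and 325 in ISO of batch 2 against 146, 109 and 183 in PS. Both overlapped ISO in batch 1 and lay below it in batch 2. The log2 fold changes were -1.61 ± 0.36 and -1.58 ± 0.35 (SE) for Atp5md (adjusted p = 0.017 and 0.019) and -1.94 ± 0.44 and -1.92 ± 0.43 for Atp5mpl (adjusted p = 0.017 and 0.019). Without ISO replicate 2, Atp5md passed in both comparisons (-0.91 and -0.94), and Atp5mpl missed the threshold with 100 nm (-0.92, adjusted p = 0.05009) and passed with 1 µm PS (-1.0).

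Atp5j2, Atp5k and Atp5l encode subunits f, e and g of the same membrane part. Atp5j2 stood at 362, 3946 and 553 CPM in ISO of batch 1 against 506 to 787 in PS, and at 1658, 1209 and 955 in ISO of batch 2 against 482, 376 and 545 in PS. Atp5k stood at 28.8, 1009 and 90.4 CPM in ISO of batch 1 against 77.5 to 143 in PS, and at 550, 452 and 293 in ISO of batch 2 against 147, 117 and 198 in PS. Atp5l stood at 180, 1534 and 299 CPM in ISO of batch 1 against 281 to 390 in PS, and at 1260, 870 and 727 in ISO of batch 2 against 340, 260 and 407 in PS. In each of the 3 genes ISO replicates 1 and 2 bracketed all PS libraries of batch 1, and no PS library of batch 2 reached the ISO level. The log2 fold changes were -1.41 ± 0.41 and -1.37 ± 0.40 (SE) for Atp5j2 (adjusted p = 0.040 and 0.046) and -1.24 ± 0.38 and -1.28 ± 0.37 for Atp5l (adjusted p = 0.046 and 0.042). Atp5k had -1.73 ± 0.54 with 100 nm (adjusted p = 0.049) and -1.68 ± 0.52 with 1 µm PS (adjusted p = 0.056). None of the 3 passed without ISO replicate 2, at -0.53 and -0.57 for Atp5j2, -0.39 and -0.48 for Atp5k and -0.56 and -0.66 for Atp5l.

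**Figure D4:**
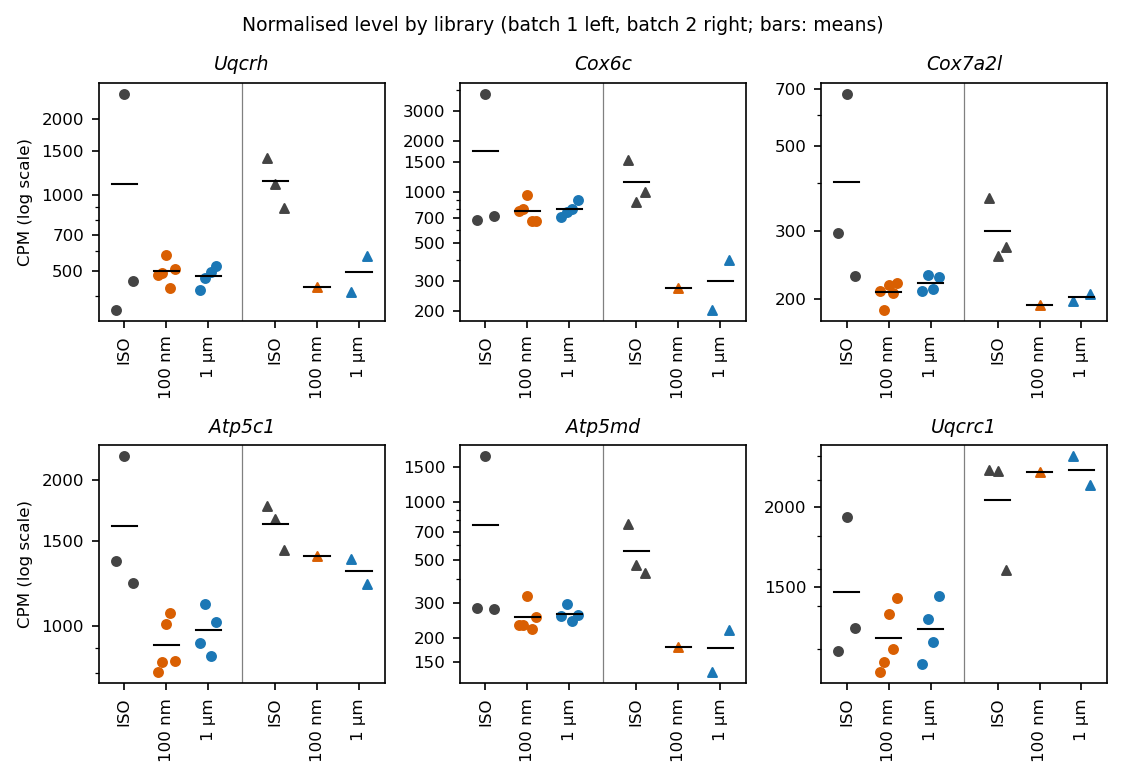
CPM (log scale) of 5 members that fell with 100 nm PS and of Uqcrc1, by group, with batch 1 left of the grey line (circles) and batch 2 right (triangles), 1 point per library and a bar for each mean. In batch 1 a single ISO library lies far above the others in Uqcrh, Cox6c and Atp5md, while the 9 PS libraries of Atp5c1 lie between 800 and 1111, below all 3 ISO libraries.

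The 10 complex V members that passed in neither comparison included the catalytic pair. Atp5b, the beta subunit that makes ATP, had log2 fold changes of -0.31 and -0.25, and Atp5a1 of -0.48 and -0.30. The stator subunits Atp5h, Atp5j, Atp5o and Atp5pb ran from -1.02 to -0.68 with 100 nm and from -0.99 to -0.68 with 1 µm PS. Atp5d, the delta subunit of the rotor stalk, had -0.49 and -0.44. Atp5g1, Atp5g2 and Atp5g3 encode the same mature c-ring protein and had -0.51, -0.36 and -0.80 with 100 nm and -0.47, -0.36 and -0.81 with 1 µm PS. Atp5g3, Atp5h, Atp5j and Atp5pb passed in the pooled comparison, with log2 fold changes from -1.01 to -0.73, and none of these 4 did without ISO replicate 2.

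The 4 isoform pairs of complex IV were compared as log2 ratios within a library, a measure that does not depend on the scaling of libraries. No ratio passed after adjustment over the 8 tests. Cox8b, the heart and muscle form of subunit VIII, stood at 161, 2326 and 340 CPM in ISO of batch 1 against 269 to 477 in PS, and at 900, 748 and 405 in ISO of batch 2 against 281, 244 and 340 in PS. Cox8a, the widely expressed form, stood at 35.9, 499 and 96.0 CPM in ISO of batch 1 against 104 to 169 in PS, and at 166, 192 and 162 in ISO of batch 2 against 99.7, 96.2 and 93.4 in PS. The log2 ratio of Cox8b to Cox8a was 1.82 to 2.22 in ISO and 1.11 to 1.80 in PS of batch 1, without overlap, and 1.32 to 2.44 in ISO and 1.34 to 1.86 in PS of batch 2, with overlap. It differed from ISO by a mean of -0.57 with 100 nm PS (two-sided exact permutation within batches, p = 0.031, adjusted 0.125) and by -0.56 with 1 µm PS (exact permutation p = 0.037, adjusted 0.125). In the fit neither gene passed in either comparison, at -1.35 ± 0.44 and -1.31 ± 0.43 (SE) for Cox8b and -0.76 ± 0.40 and -0.66 ± 0.39 for Cox8a. Cox8b passed in the pooled comparison, at -1.33 ± 0.36 (SE), but not without ISO replicate 2.

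Cox6a2, the heart and muscle form of subunit VIa, stood at 364, 3149 and 1147 CPM in ISO of batch 1 against 973 to 1436 in PS, and at 2785, 2656 and 1804 in ISO of batch 2 against 1082, 1149 and 1595 in PS. Cox6a1, the widely expressed form, stood at 60.7, 266 and 102 CPM in ISO of batch 1 against 124 to 163 in PS, and at 133, 140 and 99.2 in ISO of batch 2 against 79.7, 77.1 and 84.3 in PS. Both were below ISO in the PS libraries of batch 2 and inside the ISO range in batch 1. The log2 fold changes were -0.68 ± 0.35 and -0.61 ± 0.34 (SE) for Cox6a2 and -0.21 ± 0.27 and -0.28 ± 0.26 for Cox6a1, and none passed. The log2 ratio differed from ISO by -0.35 with 100 nm (exact permutation p = 0.089, adjusted 0.14) and by -0.19 with 1 µm PS (exact permutation p = 0.30, adjusted 0.40).

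Cox4i1, the common form of subunit IV, stood at 998, 4100 and 1616 CPM in ISO of batch 1 against 1526 to 2076 in PS, and at 4498, 3863 and 2383 in ISO of batch 2 against 2136, 1898 and 2428 in PS. Cox4i2, an oxygen-responsive form that is strong in lung, stood at 21.2, 28.2 and 12.9 CPM in ISO of batch 1 against 13.1 to 23.1 in PS, and at 21.5, 18.3 and 12.2 in ISO of batch 2 against 15.8, 9.73 and 16.4 in PS. The groups overlapped for both genes in both batches. Their log2 fold changes were -0.47 ± 0.28 and -0.49 ± 0.27 (SE) for Cox4i1 and -0.24 ± 0.21 and -0.24 ± 0.21 for Cox4i2, and none passed. The log2 ratio differed by 0.09 and 0.10 (exact permutation p = 0.78 and 0.76).

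Cox7a1, the heart and muscle form of subunit VIIa, could not be read across batches. It stood at 0.351, 9.88 and 1.99 CPM in ISO of batch 1 against 1.40 to 3.04 in PS, and at 1556, 1614 and 991 in ISO of batch 2 against 584, 479 and 543 in PS. The batch means of 2.67 and 961 CPM come from tables that were counted by different providers, and the cause of the gap was not tested. Its log2 fold changes of -1.20 ± 0.46 and -1.02 ± 0.44 (SE) did not pass. The log2 ratio to Cox7a2 differed by 0.81 and 0.76 (exact permutation p = 0.062 and 0.051), from batch 1 libraries in which Cox7a1 was close to absent. Atp5g2 showed the reverse gap, with 200 CPM on average in batch 1 and 11.6 in batch 2.

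No member was called different between the particle sizes. With 1 µm against 100 nm PS, 0 of 42 members were called, as were 0.0% of all tested genes, and at an unadjusted p under 0.05 there were 0 members and 49 of all genes (0.335%). DESeq2 also called 0 members. The log2 differences ran from -0.08 for Atp5h to 0.28 for Cox6b2. The 95% intervals were wide for the members that fell, at -0.74 to 0.72 for Uqcrh, -0.30 to 0.47 for Atp5c1 and -0.87 to 0.93 for Atp5mpl, so a difference of moderate size in either direction was not detectable with these libraries.

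Levels per kb of transcript, on the scale of mean CPM per kb in batch 1, ran from 2612 for Atp5b, 2562 for Cox4i1, 2379 for Atp5g3, 2226 for Atp5g1 and 2036 for Cox6c down to 25.8 for Cox4i2 among the members above 10. In batch 2 Cox4i1 (3849) and Atp5b (3822) led. The members that fell were neither the highest nor the lowest of the set: from Cox7a2l (243) to Cox6c (2036) in batch 1.

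Other genes of the pathway, in lists of assembly factors, neighbouring carriers and regulators, were counted in the same fit. In it 5.7% of all tested genes were called lower with 100 nm and 4.51% with 1 µm PS. The small counts of these lists were not tested against those shares. Of 7 tested complex III assembly factors 1 fell with 100 nm PS, Ttc19, at -0.64 ± 0.18 (SE), and 0 with 1 µm PS. Of 25 tested complex IV assembly factors 2 fell in each comparison, Cox11 (-0.74 ± 0.17 and -0.66 ± 0.17), which delivers copper to the enzyme, and Cmc1 (-1.18 ± 0.29 and -1.09 ± 0.28). Of 6 complex V assembly factors 2 fell with 100 nm PS, Tmem70 (-1.08 ± 0.19) and Tmem242 (-0.77 ± 0.23), which help build the c-ring into the enzyme, and 1 with 1 µm PS, Tmem70 (-0.98 ± 0.18). Tmem70 stood at 90.4 to 177 CPM in ISO and 44.3 to 69.5 in PS of batch 1, and at 53.3 to 81.8 in ISO and 38.2 to 50.9 in PS of batch 2, with no overlap in either.

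None of the 5 tested genes of complex II and cytochrome c passed with either size (medians -0.44 and -0.41), nor did any of the 6 mitochondrially encoded subunits (medians -0.74 and -0.69), whose counts are uncertain between the tables. Of 15 transcriptional regulators 2 fell in each comparison, against 5.7% and 4.51% of all genes called lower. They were Tfb2m, a mitochondrial transcription factor (-0.99 ± 0.19 and -0.75 ± 0.19, SE), and Gabpa, the DNA-binding subunit of GABP (-0.50 ± 0.15 and -0.61 ± 0.14). The core motif of GABP was in 3 of 11 called members and in 4 of 21 not called, and a link to Gabpa was not tested. Gabpa stood at 35.0 to 59.9 CPM in ISO and 31.1 to 38.6 in PS of batch 1, and at 23 to 32.8 in ISO and 18.3 to 20 in PS of batch 2, so its groups overlapped in batch 1.

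Markers were read to see which cells the tissue held. Of all tested genes, 5.7% and 4.51% were called lower with 100 nm and 1 µm PS, and 3.88% and 2.89% higher. The small marker counts below were not tested against these shares. The 10 ventricular myocyte markers summed to 33490 to 98990 CPM in ISO and 41520 to 122800 in PS libraries, and 0 of 10 passed in either comparison. The 8 skeletal muscle markers summed to 164.5 CPM in ISO replicate 2, 1.67 to 6.99 in the other ISO libraries and 2.09 to 6.80 in PS, and 2 of 4 tested were lower with 100 nm and 0 with 1 µm PS. Sums for endothelium, fibroblast and smooth muscle markers were lowest in ISO replicate 2, at 801, 831 and 633 CPM. In the other ISO libraries they were 1287 to 1972, 1022 to 1885 and 963.5 to 2076 CPM, which overlapped the 1683 to 2595, 1225 to 2844 and 1019 to 1877 CPM in PS. In these lists 1 of 8, 3 of 8 and 3 of 8 were higher with 100 nm PS and 0, 1 and 3 with 1 µm PS. The 7 macrophage markers summed to 638.9 CPM in ISO replicate 2, 166.5 to 292.1 in the other ISO libraries and 187.7 to 371.5 in PS, and 0 passed. The 5 atrial myocyte markers summed to 100.2 to 916.1 CPM in ISO and 222.1 to 3451 in PS, and of 3 tested 1 was higher with 100 nm (median log2 fold change 4.84) and 0 with 1 µm PS. The 7 fat markers summed to 11.0 to 177 CPM in ISO and 19.8 to 155 in PS. No listed marker was at 0 in all libraries, and the part of these cell types in the members' differences was not tested.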

How the data were processed

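Per the labels' protocols, 2 providers sequenced poly(A) RNA of 18 hearts. The deposited table of batch 1 holds whole-number counts per gene, and the deposited table of batch 2 holds estimated counts, which were rounded because 19.6% of those above 0 had decimals. The aligner HISAT2 2.0.5 and the counter featureCounts 1.5.0-p3 appear in the submitters' processing notes beside StringTie 1.3.3b, fastp, DESeq2 and the builds GRCm39 and mm39, without saying which made which table. Total counts ran from 14032257 to 22600570 per library.

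The tables were joined on 35565 genes, 22169 by Entrez and Ensembl number pairs and 13396 by symbol. These hold 98.9% to 99.6% of the counts of a batch 1 library, 85.2% to 87.5% of an ISO and 93.1% to 95.8% of a PS library in batch 2. The 215 unnamed entries of batch 1, with up to 0.388% of a library's counts, were left out. Of 46 entries that match the name rule, 45 joined, 44 of them by number pair. The entry that did not join is a second Atp5o entry.

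edgeR 4.0.16 in R 4.3.3 scaled the libraries by TMM, kept 14628 genes (filterByExpr, minimum count 10) and fitted group and batch over 18 libraries (robust quasi-likelihood, 14 residual degrees of freedom). P-values were adjusted over all tested genes by Benjamini-Hochberg, with 0.05 as threshold. CPM use TMM library sizes. On simulated counts for 100 nm PS the test found 47.5% of genes changed by 1 on the log2 scale, with 5.00% false calls, and 94.0% of genes changed by 2, with 5.53%. The simulated counts held no difference between batches and no shift shared by many genes of a library. These shares therefore may not hold for the real libraries, where ISO replicates 1 and 2 stood apart in nearly all members. Isoform ratios were tested by exact permutation within batches (Python 3.11.15, SciPy 1.17.1). Coding lengths come from GENCODE M21.

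Values by library are given for members called against ISO and for isoform pairs. Of other lists at most the 3 genes with the smallest p are named. The members and lists were chosen with earlier results of these data known. Alternatives were other scalings and filters, DESeq2 1.42.0, limma 3.58.1 (voom with weights), other designs and the removal of libraries. Others corrected for GC, or for GC and the length of the longest transcript.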

Additional observations from a re-analysis of the deposited data

Results flagged for a closer look

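In groups of 6 libraries, the distance of an extreme library to its neighbour was set against the range of the group, and 21 of 81 sets of values had a library standing apart, where chance gives about 1 in 20. Many of these come from 1 library. 1 µm replicate 5, of batch 2, was the lowest of its group in the median of complex III (ratio of gap to range 0.630), of complex IV (0.774) and of complex V (0.632). It was also the lowest in Atp5e (0.729), Atp5j2 (0.683), Atp5k (0.689), Atp5l (0.759), Atp5md (0.673), Atp5mpl (0.659), Cox6c (0.723), Cox7a2 (0.684), Cox7b (0.659), Cox7c (0.663) and Cox8b (0.690).

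In ISO, replicate 2 stood above the rest for Atp5c1 (0.684), and replicate 1 stood above them in the ratio of Cox4i2 to Cox4i1 (0.743) and below them in that of Cox7a1 to Cox7a2 (0.641). With 100 nm PS, replicate 3 was highest for Atp5md (0.652), replicate 4 lowest for Cox4i2 (0.707) and replicate 2 lowest for Cox7a2l (0.630). With 1 µm PS, replicate 6 was highest in the ratio of Cox8b to Cox8a (0.747). These sets hold libraries of both batches, so differences between batches are part of the ranges.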

How the results depend on the processing

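Counts of called members depended on single libraries and on the design, while the medians against ISO stayed below 0 when 1 library was left out. Against ISO replicate 3 alone, the batch 1 PS libraries had a members' median difference of 0.08 in mean log2 CPM. Between the sizes the median was 0.03 in the fit reported and -0.04 without ISO replicate 2. Leaving out 1 library gave 0 to 31 members called with 100 nm PS, 2 to 29 with 1 µm PS, 6 to 34 with both PS groups pooled and 0 between the sizes, with medians from -1.05 to -0.35 and from -1.03 to -0.37. The library whose removal gave the lowest count was 100 nm replicate 6 for 100 nm, 1 µm replicate 1 for 1 µm and ISO replicate 2 for the pooled comparison. The highest came without ISO replicate 1. Each other removal gave 3 to 22 and 3 to 21 calls. For 100 nm and 1 µm PS in turn (main counts 13 and 11), the calls were 7 and 6 with no filter, 23 and 23 with DESeq2, 21 and 18 with voom and weights, 0 and 0 without a batch term, 2 and 0 in batch 1 alone, 0 and 0 in batch 2 alone, 0 and 0 with only the groups compared, 0 and 0 with the GC correction, and 2 and 0 with GC and length. Several of these fits made few calls in any gene: over all tested genes, in either direction, there were 0 and 0 calls without a batch term, 7 and 11 in batch 2 alone, 364 and 0 with only the groups compared, 1 and 2 with the GC correction and 19 and 0 with GC and length, against 1402 and 1082 in the fit reported. With no filter 1.73% and 1.21% of all genes were called lower, with DESeq2 10.3% and 9.37%, and with voom and weights 8.55% and 5.97%. In batch 1 alone the shares were 4.5% and 2.27%, so the 2 calls with 100 nm PS were near the share over all genes. The members' medians were -1.19 and -1.12 with the GC correction. With it 32 members fell in the pooled comparison, Atp5a1 and Cyc1 among them, against 11.4% of all genes. Without ISO replicates 1 and 2, 2 passed with 100 nm PS. At an unadjusted p under 0.05 the fits that called 0 members held 32 and 27 (no batch term), 12 (batch 1, 1 µm), 25 and 27 (batch 2), 22 and 23 (groups compared), 38 and 37 (GC), and 27 (GC and length, 1 µm) members. Over all tested genes these counts were, in the same order, 2763 and 2361 of 14628, 3684 of 15093, and 1440 and 3125 of 14361. The others were 3447 of 13955 and 2703 of 13788, 3981 and 2990 of 14628, and 2883 of 14628. The 12 in batch 1, of 43 members, were near the share over all genes. For both PS groups (main count 22), 6 passed in batch 1 alone and 12 in batch 2 alone, against 8.05% and 1.59% of all genes called lower. Atp5a1 was among the 6. With the replicate block 0, 0 and 0 members passed (9, 15 and 17 at an unadjusted p under 0.05). Over all genes it called 0, 0 and 467, and 2825, 2879 and 3554 of 14628 had an unadjusted p under 0.05. The replicate numbers did not pair the libraries, since same-numbered libraries had correlations from -0.44 to 0.23 and 0 of 18 libraries correlated best with its own number. Over all 42 members, 36 and 37 estimates lay below 0 without ISO replicate 2, and 42 and 41 without ISO replicate 1. Among the members called against ISO with either size, the isoform pairs and their ratios, signs turned for Cox6a1, Cox8a, Cox4i2 and the ratio of Cox4i2 to Cox4i1. None of these was called in any comparison of the fit reported. The log2 fold change of Cox6a1 with 100 nm PS was 0.0201 without a batch term and 0.0432 in batch 1 alone, and leaving out 1 library gave -0.45 (without ISO replicate 1) to 0.13 (without ISO replicate 2). With 1 µm PS these removals gave -0.50 to 0.021. For Cox8a they gave -1.05 to 0.0261 with 100 nm and -0.93 to 0.0517 with 1 µm PS. Cox4i2 was at 0.0154 with voom (1 µm PS). The log2 ratio of Cox4i2 to Cox4i1 was -0.11 in batch 1 alone with 100 nm PS and -0.0197 with 1 µm PS. Leaving out 1 library gave ratios of -0.11 (without 100 nm replicate 6; -0.066 without ISO replicate 2) to 0.47 with 100 nm, and -0.0431 (without ISO replicate 2) to 0.39 with 1 µm PS. The cause of these changes was not tested.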
